A study of Mus musculus with 12 samples.

Results

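The genes described here are 10 components of the Notch pathway, read out in cells of the mouse inner medullary collecting duct line mIMCD3. They were chosen by name, as the rows of the deposited table whose Ensembl identifier belongs to the receptors Notch1, Notch2, Notch3 and Notch4, the ligands Jag1, Jag2 and Dll1, the nuclear effector Rbpj, and the target genes Hes1 and Hey1. They are 10 of 47642 genes listed, of which 25060 had a value above 0 in at least 1 library. mIMCD3 is an SV40-immortalized epithelial line, and 3 genotypes were compared with 4 RNA-seq libraries each: wild-type cells (Wt), 1 Pkd1-/- clone, in which CRISPR removed nearly the full Pkd1 gene, and 1 Pkd2-/- clone, in which a TALEN pair removed exons from the middle of Pkd2. Pkd1 and Pkd2 encode the polycystins, whose loss causes autosomal dominant polycystic kidney disease. All 12 libraries came from dishes of these lines, with 6 dishes grown per genotype and 4 of them sequenced, and RNA was taken 4 days after full confluency. Because each mutant is 1 clone, a difference made by the deletion and a difference between clones cannot be told apart, and p-values measure the spread between dishes only.

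Notch signaling passes between touching cells. A ligand of the Jagged or Delta-like family on 1 cell binds a Notch receptor on its neighbor, the receptor is cut, first by an ADAM protease and then by gamma-secretase, and its freed intracellular domain joins the DNA-binding protein RBPJ to switch on target genes such as those of the Hes and Hey families. In the collecting duct, Notch signaling is known for the choice between principal cells, which take up sodium and water, and intercalated cells, which handle acid and base.

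Values are normalized counts, meaning reads per gene divided by a size factor of the library and rounded, and the 12 libraries held an estimated 23183386 to 30329302 reads on genes. Fold changes are on the log2 scale of the normalized count plus 1, and a gene is said to rise or fall where limma's adjusted p was under 0.05. Pkd1 itself held 682 to 883 normalized counts in Wt, 30 to 49 in Pkd1-/- and 1057 to 1492 in Pkd2-/- libraries. Pkd2 held 3438 to 4467 in Wt, 2545 to 2858 in Pkd1-/- and 3855 to 4135 in Pkd2-/- libraries, and since only some of its exons are deleted its total does not check the Pkd2-/- label. Of 11 markers of collecting duct epithelium, 9 had a mean of at least 10 normalized counts in every genotype, whereas the water channels Aqp2 and Aqp4 that define principal cells and Foxi1, the master regulator of intercalated cells, were at 0 in all libraries. Summed markers of endothelial cells did not exceed 10, those of pericytes or fibroblasts 99 and those of leukocytes 74 normalized counts in any library.

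For the members with the widest differences except Hey1, the 250 bases before the RefSeq transcription start (GRCm38.p6) are shown. No such sequence was at hand for Hey1. The windows run 5′ to 3′ on the gene's own strand, with core letters of the RBPJ binding site, TGGGAA or its reverse TTCCCA, in capitals. They are Jag1 at chr2:137116521-137116770 (minus strand), Notch3 at chr17:32166891-32167140 (minus strand) and Dll1 at chr17:15376933-15377182 (minus strand), with Rbpj at chr5:53590096-53590345 (plus strand) for comparison.
Jag1: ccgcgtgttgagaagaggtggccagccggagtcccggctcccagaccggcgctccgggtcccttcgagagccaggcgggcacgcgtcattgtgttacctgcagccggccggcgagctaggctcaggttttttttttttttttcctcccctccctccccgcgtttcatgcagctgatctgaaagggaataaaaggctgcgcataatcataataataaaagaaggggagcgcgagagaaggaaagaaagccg
Notch3: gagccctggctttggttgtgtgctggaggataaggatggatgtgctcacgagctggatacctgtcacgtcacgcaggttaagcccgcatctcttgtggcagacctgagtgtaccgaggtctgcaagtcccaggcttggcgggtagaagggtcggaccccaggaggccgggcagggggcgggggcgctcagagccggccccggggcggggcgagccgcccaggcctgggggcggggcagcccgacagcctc
Dll1: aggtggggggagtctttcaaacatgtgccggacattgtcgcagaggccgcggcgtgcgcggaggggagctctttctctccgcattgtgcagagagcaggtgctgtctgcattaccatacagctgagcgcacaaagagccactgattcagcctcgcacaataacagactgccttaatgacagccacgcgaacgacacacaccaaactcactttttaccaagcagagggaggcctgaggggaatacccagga
Rbpj: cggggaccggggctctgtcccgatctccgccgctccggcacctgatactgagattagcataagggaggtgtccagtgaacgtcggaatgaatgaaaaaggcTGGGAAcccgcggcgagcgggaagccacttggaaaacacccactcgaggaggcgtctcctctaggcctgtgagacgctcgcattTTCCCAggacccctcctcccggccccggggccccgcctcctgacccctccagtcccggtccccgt
Of these windows only that of Rbpj held the core letters, at 149 and 65 bases before the start. Dll1 and Rbpj each had a further RefSeq start, with windows at chr17:15375824-15376073 and chr5:53590236-53590485 that are not shown. The former held no core letters, and the latter held TTCCCA at 205 bases before its start. Sequences of this kind were at hand for 8 of the 10 members and were missing for the target genes Hes1 and Hey1. Of those 8, none of the windows of the 7 besides Rbpj held the letters. Both strands were searched, and 21.6% of 32817 windows of the same length held the letters. CACGTG, the same on both strands and the E-box letters that many helix-loop-helix factors bind, was in none of the members' windows and in 6.02% of all. A missing match says only that these letters are not in this window.

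Of the 10 Notch genes, 0 rose and 3 fell in Pkd1-/- cells (Notch2, Dll1 and Rbpj), against 27.1% of all 18552 genes tested that changed in this comparison (13.6% rose and 13.5% fell). In Pkd2-/- cells, 2 rose (Notch1 and Jag2) and 4 fell (Notch2, Notch3, Jag1 and Hey1), against 42.3% of all genes tested (20.0% rose and 22.3% fell). Compared directly, Pkd2-/- cells had 3 members higher (Notch1, Dll1 and Rbpj) and 3 lower (Notch3, Jag1 and Hey1) than Pkd1-/- cells, against 46.3% of all genes (21.9% higher and 24.3% lower). When the change also had to reach 1 on the log2 scale, up or down, 1 member (Dll1) passed in Pkd1-/-, 3 (Notch3, Jag1 and Hey1) in Pkd2-/- and 4 (Notch3, Jag1, Dll1 and Hey1) in the direct comparison. The backgrounds for this stricter count were 6.24%, 9.62% and 11.8% of all genes tested. The libraries of the genotypes compared did not overlap for 5 of the 10 members in each comparison, against 27.1% of all genes for Pkd1-/- and Wt, 37.2% for Pkd2-/- and Wt, and 41.8% for Pkd2-/- and Pkd1-/-. The comparisons share libraries and are therefore not independent of each other. The median log2 fold change of the 10 members was −0.08 in Pkd1-/- and −0.22 in Pkd2-/- cells, where the medians of all genes tested were 0.01 and −0.01.

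**Figure D1:**
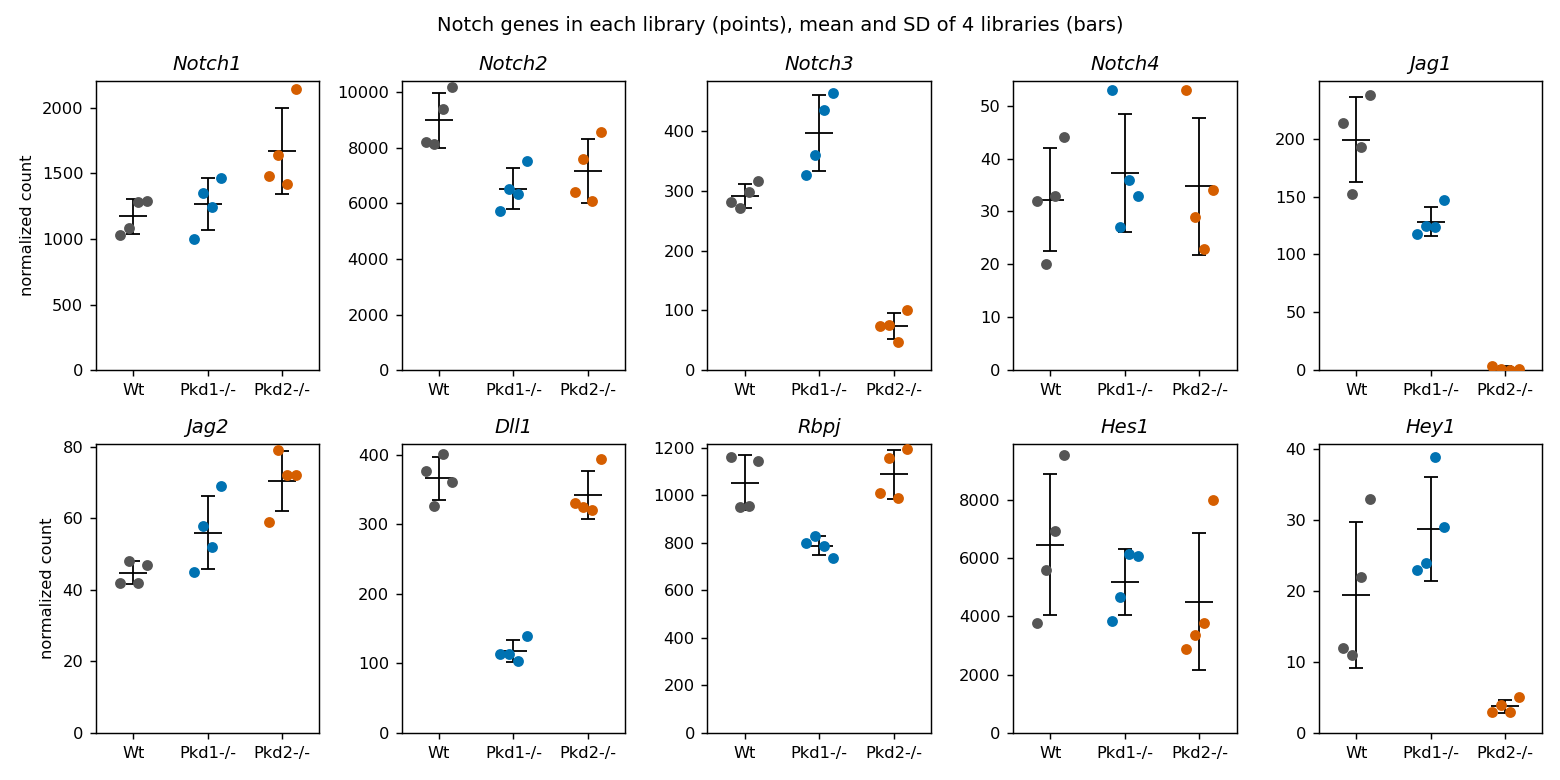
Normalized counts (vertical axis, linear, from 0) of the 10 Notch genes in Wt, Pkd1-/- and Pkd2-/- cells. Points are libraries, from left to right replicates 1 to 4, and the bars give the mean and SD of 4 libraries. Jag1 lies between 0 and 4 in Pkd2-/- cells, Dll1 between 104 and 140 in Pkd1-/- cells, and the Hes1 libraries of all genotypes overlap.

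Notch2 was the most abundant receptor in every genotype and was lower in both mutants. It lies on chromosome 3 from 98013527 to 98150361 (GRCm38, plus strand). In Wt libraries it held 8221, 8152, 9408 and 10183 normalized counts, in Pkd1-/- libraries 5745, 6529, 6343 and 7519, and in Pkd2-/- libraries 6419, 7590, 6072 and 8572. All Pkd1-/- libraries lay below all Wt libraries, whereas 1 Pkd2-/- library lay within the Wt range. The means were 8991 ± 982 in Wt, 6534 ± 737 in Pkd1-/- and 7163 ± 1142 in Pkd2-/- cells (SD, n = 4). Notch2 fell in Pkd1-/- by 0.46 on the log2 scale (standard error 0.10, adjusted p = 0.00154) and in Pkd2-/- by 0.34 (standard error 0.10, adjusted p = 0.0102). Without the trend of variance over mean in the model, the adjusted p of the second difference was 0.0584. The exact permutation test, two-sided, gave p = 0.0857 for this second difference. Between the mutants the difference was 0.13, with a 95% interval from −0.08 to 0.33 (adjusted p = 0.329).

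Notch3, a receptor best known from smooth muscle and pericytes, showed the widest change of the 4 receptors and fell in Pkd2-/- cells. The gene lies on chromosome 17 from 32120820 to 32166852 (minus strand). Its Wt libraries held 282, 271, 298 and 316 normalized counts, its Pkd1-/- libraries 327, 360, 435 and 463, and its Pkd2-/- libraries 74, 75, 47 and 100. The groups did not overlap at all, with Pkd2-/- lowest and Pkd1-/- highest. The mean of 74.0 ± 21.6 in Pkd2-/- was 3.94-fold lower than the 292 ± 19.6 in Wt (log2 fold change −2.01, standard error 0.17, adjusted p = 1.35e-08) and 5.35-fold lower than the 396 ± 63.4 in Pkd1-/- cells (log2 fold change −2.44, adjusted p = 6.61e-10; SD, n = 4). The higher level in Pkd1-/- than in Wt, 0.43 on the log2 scale, did not pass the test (adjusted p = 0.0678; exact permutation test, two-sided, p = 0.0286, the smallest that 4 libraries against 4 can give). That call depended on single libraries: the adjusted p was 0.0422 without Pkd1-/- replicate 1, 0.0138 without Pkd2-/- replicate 3 and 0.0275 without Pkd2-/- replicate 4. The summed markers of pericytes or fibroblasts ranged from 25 to 55 in Wt, 22 to 38 in Pkd1-/- and 15 to 99 in Pkd2-/- libraries and overlapped between the genotypes, with 1, 1 and 3 of the 6 markers at a mean of 10 or more. In bulk RNA, fewer cells with a transcript and less of it per cell cannot be told apart, here and below.

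Notch1 moved the other way in Pkd2-/- cells. It lies on chromosome 2 from 26457903 to 26516663 (minus strand). Wt libraries held 1033, 1083, 1283 and 1287 normalized counts, Pkd1-/- libraries 999, 1346, 1245 and 1466, and Pkd2-/- libraries 1477, 1636, 1419 and 2145. Every Pkd2-/- library lay above every Wt library, and the Pkd1-/- libraries overlapped both other groups. Notch1 rose in Pkd2-/- cells by 0.50 on the log2 scale over Wt (standard error 0.12, adjusted p = 0.00262) and was 0.40 above Pkd1-/- (adjusted p = 0.0119), a call that was lost without Pkd1-/- replicate 1 (0.29, adjusted p = 0.0550). Between the mutants the exact permutation test, two-sided, gave p = 0.0571. In Pkd1-/- the difference from Wt was 0.10, with an interval from −0.15 to 0.36 (adjusted p = 0.604). Other genes of chromosome 2 and other long transcripts were higher in Pkd2-/- cells as well. On the log2 scale, the median in Pkd2-/- was 0.33 over 1058 genes of chromosome 2 and 0.38 over the 142 genes within 5 Mb of Notch1, among genes averaging at least 10 normalized counts. For the 2165 genes with at least 8 kb of exon it was 0.11, against −0.03 for the others. With the trend over exon length removed from each library, an alternative chosen after the data were seen, Notch1 was 0.31 above Wt (adjusted p = 0.00441) and 0.21 above Pkd1-/- (adjusted p = 0.0467). The part of either in the rise of Notch1 was not tested. The non-coding gene 0610009E02Rik shares 1068 exon bases with Notch1 on the opposite strand, at a mean of 5.67 normalized counts.

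Notch4, known chiefly from endothelium, was the least abundant receptor, and no difference was detected at this depth. Wt libraries held 20 to 44, Pkd1-/- libraries 27 to 53 and Pkd2-/- libraries 23 to 53 normalized counts, ranges that overlap almost wholly. The log2 fold changes against Wt were 0.21 (interval −0.38 to 0.81) in Pkd1-/- and 0.09 (interval −0.51 to 0.69) in Pkd2-/- cells.

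Jag1 was nearly absent from Pkd2-/- libraries, the widest change among the 10 genes. Jag1 encodes a transmembrane ligand of the Jagged family and lies on chromosome 2 from 137081456 to 137116644 (minus strand). Its Wt libraries held 214, 152, 193 and 238 normalized counts, its Pkd1-/- libraries 118, 125, 124 and 147, and its Pkd2-/- libraries 4, 1, 0 and 1. The 3 groups were fully separate. Summed over the libraries, Pkd2-/- cells held 6 normalized counts where Wt held 797, which is 0.753% of the Wt level (95% exact interval 0.275 to 1.65%, for counting error only) or 133-fold lower. The fitted log2 fold changes were −6.55 against Wt (standard error 0.33, adjusted p = 1.15e-11) and −5.93 against Pkd1-/- (adjusted p = 3.39e-11). At counts this low they depend on the pseudocount, reaching −4.99 against Wt with a pseudocount of 5. In Pkd1-/- cells the mean of 128 ± 12.7 was 64.5% of the 199 ± 36.5 in Wt (SD, n = 4). This difference, −0.61 on the log2 scale, did not pass the test (adjusted p = 0.197; exact permutation test, two-sided, p = 0.0286), and it passed in a model of only these 2 genotypes (adjusted p = 0.00234) and with a pseudocount of 5 (adjusted p = 0.0233). Genes around Jag1 did not share its change. Over the 25 genes within 5 Mb, the median in Pkd2-/- cells was 0.23 on the log2 scale, with 9 below and 16 above 0.

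Dll1 differed from Jag1 in this, falling in Pkd1-/- and not detectably different in Pkd2-/- cells. It encodes a ligand of the Delta-like family and lies on chromosome 17 from 15367354 to 15376872 (minus strand). Wt libraries held 377, 327, 401 and 361 normalized counts, Pkd1-/- libraries 113, 113, 104 and 140, and Pkd2-/- libraries 331, 325, 320 and 394. Pkd1-/- cells lay apart, while the Wt and Pkd2-/- libraries overlapped. The mean of 118 ± 15.6 in Pkd1-/- was 3.12-fold lower than the 366 ± 31.0 in Wt (SD, n = 4; log2 fold change −1.64, standard error 0.11, adjusted p = 7.83e-10), and Pkd2-/- was above Pkd1-/- by 1.54 (adjusted p = 6.24e-10). Against Wt, the difference in Pkd2-/- was −0.10, with an interval from −0.32 to 0.12 (adjusted p = 0.498). Dll1 is on the same chromosome as Pkd1, whose deletion runs from 24550055 to 24594963 at its widest. Over the 36 genes within 5 Mb of Dll1, the median in Pkd1-/- cells was 0.06 on the log2 scale. On the opposite strand the non-coding gene A930024N18Rik shares 867 exon bases with Dll1, and whether reads were counted by strand is not given in the sources used here. A930024N18Rik also fell in Pkd1-/- cells, from a mean of 66.0 to 16.5 normalized counts (log2 fold change −1.97, adjusted p = 4.58e-06). It also fell in Pkd2-/- cells, to 39.0 (−0.77, adjusted p = 0.0157), where Dll1 did not pass the test. Whether reads of the pair were mixed was not tested.

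Jag2, the second Jagged ligand, was expressed at a lower level and was highest in Pkd2-/- cells. It lies on chromosome 12 from 112907819 to 112929776 (minus strand). The Wt libraries held 42, 48, 42 and 47 normalized counts, the Pkd1-/- libraries 45, 58, 52 and 69, and the Pkd2-/- libraries 59, 79, 72 and 72. All Pkd2-/- libraries exceeded all Wt libraries, and Pkd1-/- lay between with overlap on both sides. The rise in Pkd2-/- was 0.64 on the log2 scale over Wt (standard error 0.17, adjusted p = 0.00431). Neither Pkd1-/- against Wt (0.30, adjusted p = 0.206) nor Pkd2-/- against Pkd1-/- (0.34, adjusted p = 0.112) passed, although the latter did without Pkd1-/- replicate 4 (0.44, adjusted p = 0.0470).

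**Figure D2:**
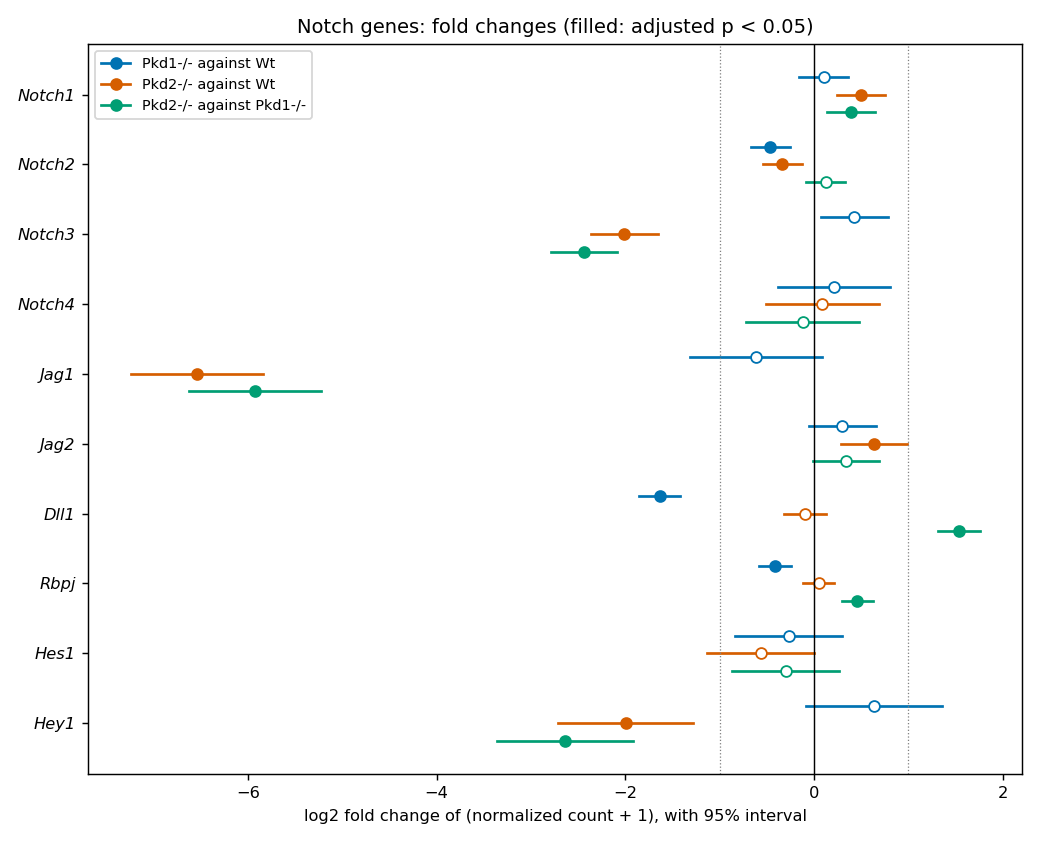
Log2 fold changes of the 10 Notch genes (horizontal axis, on the scale of normalized count plus 1) in 3 comparisons, with 95% intervals. Filled points passed limma's test and the dotted lines mark −1 and 1. Jag1, Notch3 and Hey1 lie left of −1 in Pkd2-/- cells and Dll1 in Pkd1-/- cells.

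Rbpj, the DNA-binding protein through which all 4 receptors act, was lower in Pkd1-/- cells alone by this test. The gene lies on chromosome 5 from 53466152 to 53657362 (plus strand). Wt libraries held 1160, 952, 955 and 1146 normalized counts, Pkd1-/- libraries 800, 829, 787 and 738, and Pkd2-/- libraries 1011, 1158, 990 and 1194. The Pkd1-/- libraries were below all others, and Wt and Pkd2-/- overlapped. Rbpj fell in Pkd1-/- by 0.41 on the log2 scale against Wt (standard error 0.08, adjusted p = 0.000546), and Pkd2-/- lay 0.46 above Pkd1-/- (adjusted p = 8.06e-05). The difference between Pkd2-/- and Wt was 0.05 (interval −0.12 to 0.21, adjusted p = 0.667). The genes around Rbpj were lower in Pkd1-/- cells as well. Over the 24 genes within 5 Mb the median log2 fold change was −0.40, with 17 below and 7 above 0, and Rbpj differed from that median by −0.02. Over 923 genes of chromosome 5 the median was −0.18. In Pkd2-/- against Pkd1-/- cells, the median of the 24 genes was 0.24, with 6 below and 18 above 0. With the trend over exon length removed from each library, Rbpj in Pkd2-/- was 0.29 above Pkd1-/- (adjusted p = 0.000582). The part of neighbors or length in the differences of Rbpj was not tested. The processed pseudogene Rbpj-ps3, whose sequence copies Rbpj and whose reads may have been exchanged with it, went from 25 to 37 normalized counts in Wt to 2 to 10 in Pkd1-/- libraries (log2 fold change −2.36, adjusted p = 2.16e-05).

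**Figure D3:**
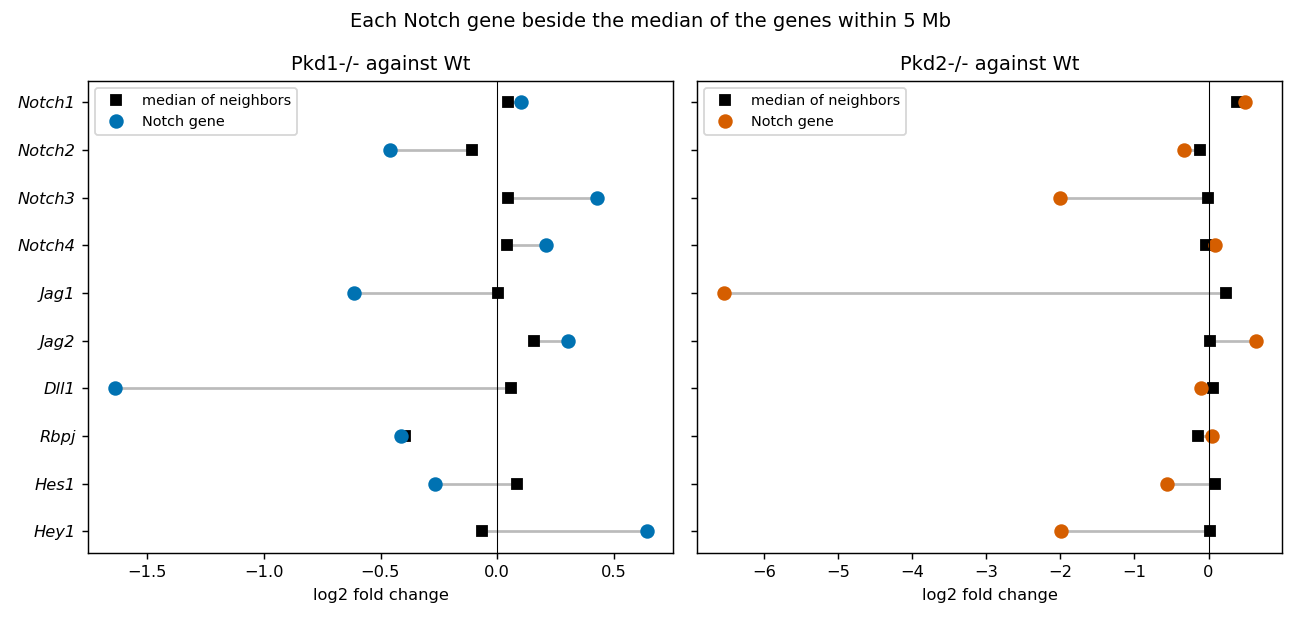
Log2 fold change of each Notch gene (circles) and median of the genes within 5 Mb of it (squares), in Pkd1-/- and in Pkd2-/- cells against Wt (the horizontal scales differ). Rbpj in Pkd1-/- (−0.41 beside −0.40) and Notch1 in Pkd2-/- (0.50 beside 0.38) lie close to the median of their neighbors. Jag1, Notch3 and Hey1 in Pkd2-/- and Dll1 in Pkd1-/- lie far from it. In the same order, 0%, 1.06%, 11.5% and 2.78% of the neighbors lay below the gene itself.

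Hes1, a repressor of the basic helix-loop-helix class and the classical Notch target, was abundant. With all libraries and genotype alone in the model, it did not pass the test in any comparison. It lies on chromosome 16 from 30064384 to 30067796 (plus strand). Wt libraries held 3783, 5583, 6928 and 9545 normalized counts, Pkd1-/- libraries 3845, 4659, 6148 and 6064, and Pkd2-/- libraries 2877, 3371, 3753 and 7997. The highest library of a genotype exceeded its lowest by 2.52-fold in Wt, 1.60-fold in Pkd1-/- and 2.78-fold in Pkd2-/- cells. Its SD within a genotype was larger than that of 95.9%, 88.0% and 97.3% of the 13703 genes averaging at least 10 normalized counts. The log2 fold changes against Wt were −0.27 in Pkd1-/- (interval −0.83 to 0.30, adjusted p = 0.530) and −0.57 in Pkd2-/- cells (interval −1.13 to 0.00077, adjusted p = 0.104). The latter passed without Wt replicate 1 (−0.80, adjusted p = 0.0232) and without Pkd2-/- replicate 4 (−0.88, adjusted p = 0.00226), the library at 7997. Without Pkd2-/- replicate 4, Hes1 was also lower in Pkd2-/- than in Pkd1-/- cells (−0.62, adjusted p = 0.0232), a difference of −0.30 (adjusted p = 0.399) with all libraries. Replicate 1 was the lowest library of each genotype. With the replicate number added to limma's model as a block, Hes1 passed in Pkd2-/- against Wt (adjusted p = 0.000389). It also passed there between the mutants (adjusted p = 0.0352). The sources used here do not say that same-numbered dishes were handled together, and pairing by number was weak in most pairs of libraries.

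Hey1, a related repressor of the Hey family, was expressed at a low level and was lowest in Pkd2-/- cells. It lies on chromosome 3 from 8663359 to 8667256 (minus strand). Wt libraries held 12, 11, 22 and 33 normalized counts, Pkd1-/- libraries 23, 24, 39 and 29, and Pkd2-/- libraries 3, 4, 3 and 5. Each Pkd2-/- library was below every other library, while Wt and Pkd1-/- overlapped. Summed over libraries, Pkd2-/- held 15 where Wt held 78, or 19.2% of the Wt level (exact interval 10.3 to 33.7%, counting error only). The log2 fold change was −2.00 against Wt (standard error 0.34, adjusted p = 9.83e-05) and −2.64 against Pkd1-/- (adjusted p = 3.27e-06). The level in Pkd1-/- was 0.64 above Wt on the log2 scale, with an interval from −0.08 to 1.36 (adjusted p = 0.191).

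Per kilobase of annotated exon, which allows levels of different genes to be compared, Hes1 led in every genotype, with a mean of 3171 normalized counts per kb in Wt, followed by Notch2 with 834. In Wt, Dll1 (86.9), Rbpj (82.6) and Notch1 (82.3) came next, and their ranges over libraries overlapped. Notch3 (36.1) and Jag1 (34.2) overlapped as well. Hey1 (5.97) overlapped both Jag2 (6.42) and Notch4 (4.00), which did not overlap each other. In Pkd1-/- cells Dll1 went from the third to the sixth place (27.9), next to Jag1 (22.1), whose range it overlapped. In Pkd2-/- cells Jag1 (0.257) was in the last place, below Hey1 (1.15) and Notch4 (4.31), and Notch3 (9.15) overlapped both Jag2 (10.1) and Notch4. These lengths count the exons of all annotated transcripts, and a gene that uses few of them appears lower.

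Among the 4 receptors, Notch2 made up 87.2% ± 0.239 of the summed level per kb in Wt, 81.0% ± 0.748 in Pkd1-/- and 83.6% ± 0.857 in Pkd2-/- cells (SD, n = 4). The share of Notch1 was 8.61% ± 0.321, 11.8% ± 0.764 and 14.7% ± 0.765 in the same order, and that of Notch3 was 3.78% ± 0.171, 6.53% ± 0.600 and 1.14% ± 0.197. The summed receptor level was 956 ± 103 normalized counts per kb in Wt, 748 ± 87.0 in Pkd1-/- and 795 ± 130 in Pkd2-/- cells. A share can therefore be larger where the gene itself did not detectably change, as for Notch1 in Pkd1-/- cells. The ligands were divided differently in each genotype, with Dll4 counted among them although it is not among the 10 genes. Dll1 held 65.5% ± 3.03 of the ligand level in Wt, 42.5% ± 2.45 in Pkd1-/- and 81.6% ± 2.24 in Pkd2-/- cells. Jag1 held 25.6% ± 3.16, 33.7% ± 0.238 and 0.264% ± 0.317. The summed ligand level was 133 ± 10.7 normalized counts per kb in Wt, 65.5 ± 6.23 in Pkd1-/- and 99.4 ± 7.92 in Pkd2-/- cells, and the groups did not overlap, with ranges of 117 to 139, 60.5 to 74.5 and 94.6 to 111. These shares are descriptions of the values already given and carry no test.

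**Figure D4:**
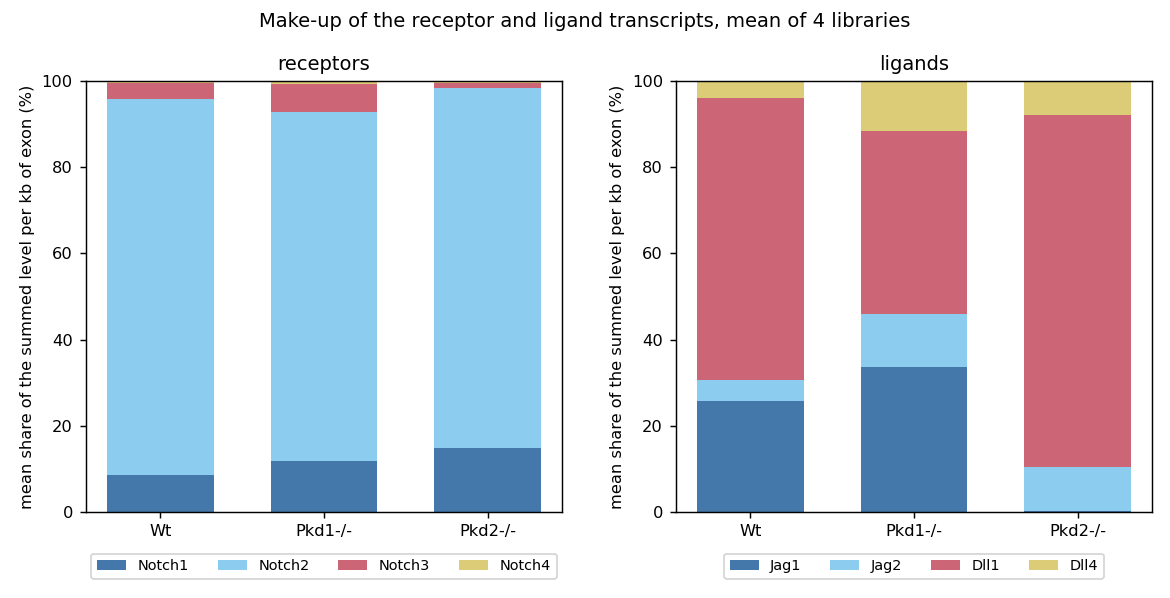
Mean share of each gene (vertical axis, percent) in the summed normalized count per kb of exon, for the 4 receptors and for 4 ligands, in each genotype (n = 4). Notch2 fills over 80% of each receptor bar, and Jag1 goes from 25.6% in Wt to 0.264% in Pkd2-/- cells.

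The genes nearest to each of the 4 widest members in the pair of log2 fold changes, Pkd1-/- and Pkd2-/- against Wt, were looked up among genes called in the same comparisons, with a mean of at least 10. For Notch3 (0.43 and −2.01) they were Rgcc (0.46 and −2.06), Hnf4g (0.52 and −2.01) and Tmem229b (0.50 and −1.89). For Jag1 (−0.61 and −6.55) they were Foxl2 (−0.42 and −6.59), Sostdc1 (−0.42 and −6.69) and Jph1 (−0.26 and −6.83). Hey1 (0.64 and −2.00) had Dnajc22 (0.69 and −2.03), Hnf4g (0.52 and −2.01) and Cd1d1 (0.78 and −1.94) nearest. Dll1 (−1.64 and −0.10) had the Y-chromosome genes Kdm5d (−1.64 and −0.07) and Uty (−1.71 and −0.03) and the gene Dip2c (−1.53 and −0.13) nearest. These are likenesses over 3 genotype means, among 3588 candidates for Notch3, Jag1 and Hey1 and 1312 for Dll1.

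Besides the 10 genes, 62 further genes of the pathway were listed by role, and 56 had a mean of at least 1 normalized count and were tested. In Pkd1-/- cells 8 rose and 10 fell, in Pkd2-/- cells 19 rose and 14 fell, and in Pkd2-/- against Pkd1-/- 20 were higher and 19 lower, against the backgrounds of 27.1%, 42.3% and 46.3% given above. Their median log2 fold changes were 0.04, −0.03 and −0.01, where those of all genes tested were 0.01, −0.01 and −0.01. Dll3, Dlk1, Rbpjl, Hes3, Hes5 and Dtx1 were not tested, and none of them exceeded 2 normalized counts in any library. With the fold threshold, 2, 5 and 7 of the 56 passed, where 6.24%, 9.62% and 11.8% of all genes tested did.

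Of 10 genes that process the receptor, 0 rose and 1 fell in Pkd1-/- and 3 rose and 2 fell in Pkd2-/- cells, where 27.1% and 42.3% of all genes tested passed. Ncstn, the gamma-secretase subunit with the highest level per kb of this list, had means of 5642, 5369 and 5296 normalized counts in Wt, Pkd1-/- and Pkd2-/- cells and passed in no comparison. In Pkd2-/- against Wt its log2 fold change was −0.09, lower in every library (adjusted p = 0.132), and it passed when libraries were scaled to the same upper quartile (−0.12, adjusted p = 0.0452) or the same total (−0.16, adjusted p = 0.00952). Aph1c, another gamma-secretase subunit, fell in Pkd2-/- cells, where its libraries held 128, 112, 150 and 187 normalized counts against 393 to 413 in Wt and 357 to 401 in Pkd1-/- cells (log2 fold change −1.50 against Wt, adjusted p = 5.96e-09). It has a close paralog, Aph1b, with which reads may have been exchanged. Of the 5 enzymes that place sugars on the receptor, 1 rose and 1 fell in Pkd1-/- and 1 rose and 2 fell in Pkd2-/- cells. Poglut1, which adds O-glucose, fell in both, with means of 4081, 3146 and 2691 (log2 fold changes −0.38 and −0.60, adjusted p = 2.35e-06 and 2.00e-09), and no libraries of the 3 genotypes overlapped.

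Among 13 ubiquitin ligases and endocytic regulators, 3 rose and 1 fell in Pkd1-/- and 5 rose and 5 fell in Pkd2-/- cells, where 27.1% and 42.3% of all genes tested passed in either direction. Neurl1a, a Neuralized-type ubiquitin ligase of the kind that acts on ligands, went in opposite directions. Its Wt libraries held 21, 8, 23 and 22 normalized counts, its Pkd1-/- libraries 59, 62, 61 and 55, and its Pkd2-/- libraries 2, 1, 5 and 2. It rose in Pkd1-/- by 1.73 on the log2 scale (adjusted p = 0.00118) and fell in Pkd2-/- by 2.50 (adjusted p = 1.48e-05), with no overlap of the 3 groups. Nedd4, the ligase with the highest level, fell in Pkd2-/- by 0.18 (means 35553 and 31530, adjusted p = 0.00964). Among the ligand-like genes, Dlk2 held 17 to 32 normalized counts in Wt and rose to 38 to 50 in Pkd1-/- libraries (log2 fold change 0.77, adjusted p = 0.0119).

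RBPJ works with co-activators when a receptor is active and with co-repressors otherwise. Of 8 co-activators, 1 rose and 1 fell in Pkd1-/- and 4 rose and 0 fell in Pkd2-/- cells. The shares of all genes tested that passed in either direction were 27.1% and 42.3%, and 20.0% rose in Pkd2-/- cells. Kat2a, an acetyltransferase, rose in Pkd1-/- by 0.17 (adjusted p = 0.00603). Of 12 co-repressors tested, 2 rose and 5 fell in Pkd1-/- and 5 rose and 3 fell in Pkd2-/- cells, beside 27.1% and 42.3% of all genes in either direction. Ctbp1, the co-repressor with the highest level, fell in Pkd1-/- from 7552 ± 176 to 6158 ± 134 normalized counts (SD, n = 4; log2 fold change −0.29, adjusted p = 1.20e-05). Tle4, a Groucho-type co-repressor, moved in opposite directions, with libraries of 434 to 486 in Wt, 221 to 273 in Pkd1-/- and 1026 to 1211 in Pkd2-/- cells. Its log2 fold changes were −0.86 (adjusted p = 9.34e-08) and 1.26 (adjusted p = 1.98e-10).

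Fhl1 encodes a LIM-domain protein best known from muscle, of which 1 isoform binds RBPJ. It held 723, 738, 731 and 737 normalized counts in Wt, 254, 302, 353 and 296 in Pkd1-/- and 3, 7, 0 and 10 in Pkd2-/- libraries. The 3 groups lay far apart. In sums, Pkd2-/- held 20 where Wt held 2929, which is 0.683% (exact interval 0.416 to 1.06%, counting error only), and the log2 fold change was −7.40 (adjusted p = 2.10e-10). In Pkd1-/- it was −1.29 with an adjusted p of 0.0459, and between −1.37 and −1.21 with any 1 library left out. The main model takes 1 spread per gene from all 12 libraries, those of Pkd2-/- included, and the adjusted p depended on the setting. It was 5.90e-09 in a model of only Wt and Pkd1-/- and 0.000139 without Pkd2-/- replicate 3, and the call also held with a pseudocount of 5. It rose to between 0.0520 and 0.0989 when any 1 Wt or Pkd1-/- library or Pkd2-/- replicate 1 was left out, and the call was also lost with a pseudocount of 0.5, without the filter on low values or without the variance trend. Tle2, with 1 to 13 normalized counts in any library, was lower in Pkd2-/- than in Pkd1-/- cells (−1.48, adjusted p = 0.0277). That call was lost without Pkd1-/- replicate 1 (adjusted p = 0.0767), Pkd1-/- replicate 3 (0.0783), Pkd2-/- replicate 1 (0.0926) or Pkd2-/- replicate 4 (0.0907), and without the variance trend. For this difference of Tle2, the exact permutation test, two-sided, gave p = 0.0857.

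Of the other Hes, Hey and feedback genes, 6 of 9 were tested. In Pkd1-/- cells 0 rose and 1 fell, and in Pkd2-/- cells 1 rose and 2 fell, where 27.1% and 42.3% of all genes tested passed. Nrarp, a target gene whose product dampens Notch signaling, held 51 to 64 normalized counts in Wt, 33 to 48 in Pkd1-/- and 60 to 99 in Pkd2-/- libraries. Pkd2-/- was above Pkd1-/- by 1.02 on the log2 scale, with no overlap (adjusted p = 0.000135). The calls against Wt were near the threshold. Nrarp fell by 0.54 in Pkd1-/- (adjusted p = 0.0348, and 0.0613 to 0.108 without Wt replicate 2, 3 or 4 or Pkd1-/- replicate 1 or 2) and rose by 0.48 in Pkd2-/- (adjusted p = 0.0432, and 0.0591 to 0.137 without Wt replicate 1, 2 or 3 or Pkd2-/- replicate 2, 3 or 4). Both calls were lost without the filter on low values, and the second also when libraries were rescaled. For the second, the exact permutation test, two-sided, gave p = 0.0857. Hes6 fell in Pkd2-/- by 0.40 (means 1168 and 886, adjusted p = 0.000170). Hes2 was at 0 in all Pkd2-/- libraries and held 1 to 8 normalized counts in Wt and 0 to 7 in Pkd1-/- libraries. Its sum of 0, against 17 in Wt, allows up to 24.2% of the Wt level by the exact interval (counting error only, adjusted p = 0.00682). Against the sum of 14 in Pkd1-/- it allows up to 30.1% (adjusted p = 0.0191), a call that was lost without Pkd1-/- replicate 1 (adjusted p = 0.0789) or 3 (adjusted p = 0.0558). Between the mutants the exact permutation test of Hes2, two-sided, gave p = 0.143.

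**Figure D5:**
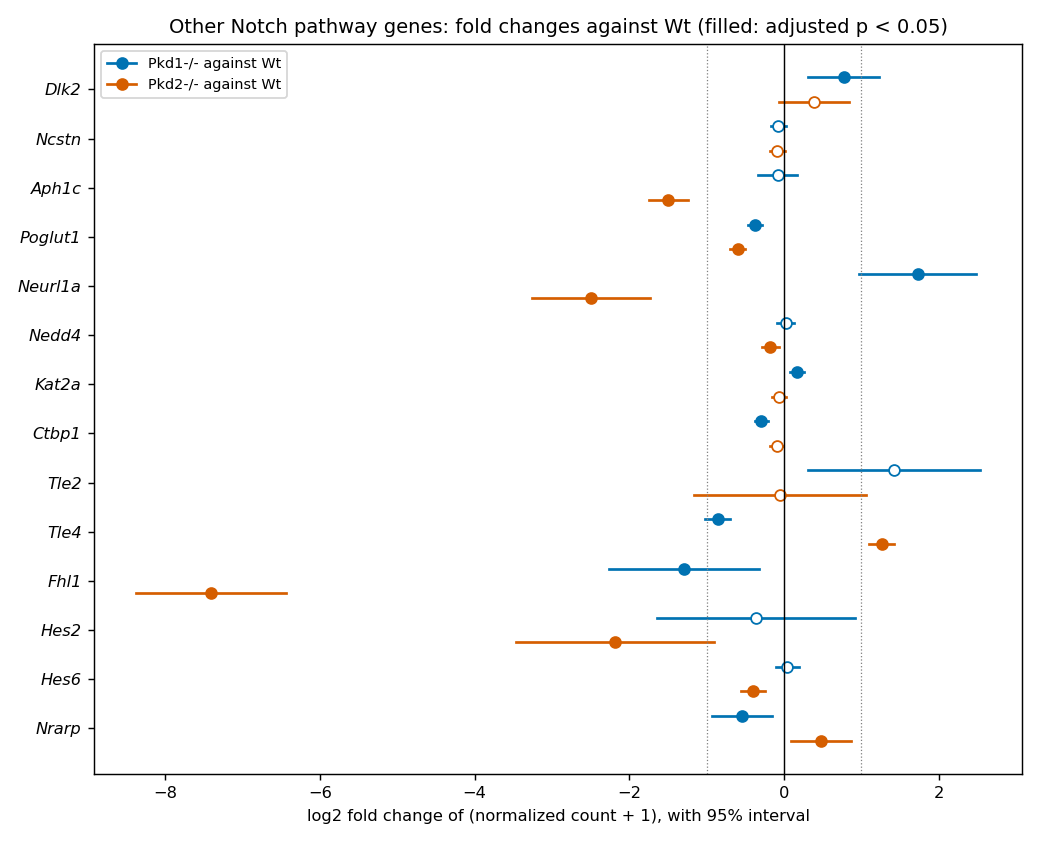
Log2 fold changes against Wt (horizontal axis, on the scale of normalized count plus 1) of 14 further genes of the pathway, with 95% intervals; filled points passed limma's test. Neurl1a and Tle4 lie on opposite sides of 0 in the mutants, and Fhl1 reaches −7.40 in Pkd2-/- cells.

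Markers of the cell types between which Notch signaling is known to act also differed between genotypes. Scnn1g, a sodium channel subunit of principal cells, held 876 to 988 normalized counts in Wt, 249 to 347 in Pkd1-/- and 243 to 265 in Pkd2-/- libraries. Hsd11b2, a steroid-inactivating enzyme of principal cells, moved the other way in Pkd1-/-, with 74 to 84 in Wt, 106 to 121 in Pkd1-/- and 50 to 68 in Pkd2-/- libraries (log2 fold change 0.55 in Pkd1-/-, adjusted p = 0.00546, and −0.48 in Pkd2-/-, adjusted p = 0.00777). Atp6v1b1, a proton pump subunit of intercalated cells, held 29 to 76 in Wt, 437 to 544 in Pkd1-/- and 0 to 2 in Pkd2-/- libraries, and was the only 1 of 11 intercalated cell markers with a mean of at least 10 in any genotype. Over the whole lists, the summed principal cell markers, of which Scnn1g is the largest, ranged from 1034 to 1150, 471 to 560 and 427 to 444, with 3 of 10 at a mean of at least 10 in each genotype, and the summed intercalated cell markers from 31 to 84, 442 to 553 and 3 to 7, in the same order. Because Scnn1g is the largest part of the principal cell sum, that sum does not show how the markers besides Scnn1g and Hsd11b2 moved. Those markers are not given singly here. The part of the marker differences in those of the Notch genes was not tested.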

How the data were processed

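RNA of 12 mIMCD3 libraries was sequenced on an Illumina HiSeq. Per the labels and the study's methods, Trim Galore trimmed the reads, HISAT2 placed them on GRCm38, htseq-count assigned them to Ensembl genes, and DESeq2 supplied a size factor by which each library was divided. The deposited values (unit score) are these normalized counts, which the authors rounded, so methods for read counts were not used. All 12 sample columns were used. No 2 libraries were identical, and at least 19339 genes differed between any pair. Reads per library, 23183386 to 30329302, were estimated from the spacing of the rounded values between 8 and 300.

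The 18552 genes averaging 1 normalized count or more were tested with limma 3.58.1 (R 4.3.3), lmFit and eBayes with a variance trend, after adding 1 and taking log2, with the 12 libraries in the same model. The spread of a gene was thus estimated from all 3 genotypes, also where only 2 were compared. Limma's two-sided p-values were Benjamini-Hochberg adjusted within each comparison. The test was checked on simulated data. Single genes were also compared by exact permutation. Symbols, positions and exon lengths came from GENCODE M21, which held 47223 of the identifiers. Python 3.11.15, pandas 2.3.3 and scipy 1.17.1 did the rest. Replicate numbers were checked for pairing, which was weak in most pairs of libraries, and the main model does not use them.

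The members, gene lists and alternatives were chosen with earlier results of these data known. Named pathway genes passed the test and changed by 1 or more on the log2 scale in some comparison or led their list in level per kb; named markers led their list or define a cell type.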

Additional observations from a re-analysis of the deposited data

Results flagged for a closer look

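In 3 of 72 groups of 4 libraries, over the 10 Notch genes and the 14 named pathway genes, 1 library stood apart by Dixon's criterion at the 95% level. Chance flags about 1 in 20 groups. Dll1 was at 394 in its highest Pkd2-/- library, with the others between 320 and 331. Neurl1a was at 8 in its lowest Wt library and Ctbp1 at 7309 in its highest Pkd2-/- library.

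For 11 genes the 2 mutant clones differed by a log2 value of at least 1 in the direct test of Pkd2-/- against Pkd1-/-. They are 4 of the 10 Notch genes and 7 of the 56 further pathway genes tested, where 11.8% of all genes tested passed. Pathway genes were named partly for passing this threshold, so their place here follows from that choice. Pkd2-/- was lower by −2.44 for Notch3, −5.93 for Jag1, −2.64 for Hey1, −1.41 for Aph1c, −4.22 for Neurl1a, −1.48 for Tle2, −6.12 for Fhl1 and −1.83 for Hes2. It was higher by 1.54 for Dll1, 2.12 for Tle4 and 1.02 for Nrarp.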

How the results depend on the processing

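The calls of Jag1, Notch3 and Hey1 in Pkd2-/- and of Dll1 in Pkd1-/- cells, and the 4 members past the fold threshold between the mutants, held under every alternative run. The number of members past the test in Pkd1-/- was 3 and became 5, adding Jag1 and Notch3, in a model of only the 2 genotypes compared. Of the 18552 genes tested, 5176 passed in that model, instead of 5020. In that model the log2 fold changes were 0.43 for Notch3 and −0.61 for Jag1, and Jag1 also passed with a pseudocount of 5 (−0.60). Without a variance trend, Notch2 in Pkd2-/- (−0.34) and Notch1 between the mutants (0.40) no longer passed. Pairing by replicate number was weak in most pairs of libraries. Same-numbered libraries correlated by −0.07 to 0.20 in their deviations from the genotype means, and 2 of 12 pairs exceeded 0.1. Of 24 best matches of a library in another genotype, 9 were with its own number. The median deviation of the 2165 genes with at least 8 kb of exon was highest in replicate 4 of each genotype. It was 0.076 in Wt, 0.055 in Pkd1-/- and 0.12 in Pkd2-/- cells on the log2 scale. Whether same-numbered dishes were handled together is not given in the sources used here. With a replicate block, 4, 7 and 7 members passed instead of 3, 6 and 6, adding Notch3 in Pkd1-/- (0.43) and Hes1 in Pkd2-/- (−0.57, adjusted p = 0.000389) and between the mutants (−0.30, adjusted p = 0.0352). Of the 18552 genes tested, 5322, 8048 and 8782 passed with the block, instead of 5020, 7852 and 8588. With the length trend removed, chosen after seeing the data, Notch3 in Pkd1-/- passed (0.43), and Rbpj in Pkd2-/- (−0.12) and Notch2 between the mutants (−0.0096) changed sign without passing. Rbpj in Pkd2-/- also changed sign when libraries were scaled to the same total (−0.018), as did Tle2 with a pseudocount of 5 (0.0047). With each library left out in turn, 3 to 4, 6 to 7 and 5 to 7 members passed. Over all genes tested, 4314 to 5266, 7230 to 7921 and 8023 to 8625 passed in these fits. The log2 fold changes then ranged from 0.35 to 0.52 for Notch3 in Pkd1-/-, from −0.13 to 0.26 for Notch4 in Pkd2-/- and from −0.34 to 0.059 between the mutants, from −0.88 to −0.35 for Hes1 in Pkd2-/- and from −0.62 to −0.13 between the mutants, from 0.27 to 0.47 for Notch1 and from 0.24 to 0.44 for Jag2 between the mutants. For genes outside the 10 they ranged from −0.75 to 0.25 for Hes2 in Pkd1-/-, from −0.49 to 0.24 for Tle2 in Pkd2-/- and from −0.038 to 0.0076 for Ncstn between the mutants. The causes of these changes were not tested. The libraries of a mutant are dishes of 1 clone, no molecular identifiers separate PCR copies from molecules, and for Jag1 and Fhl1 in Pkd2-/- cells the counts limit the fold to its counting interval.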
